A study of Mus musculus with 18 samples.

Results

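The genes described here are 10 members of the cytosolic heat shock response: the HSP70 chaperones Hspa8, Hspa1a and Hspa1b, the HSP90 chaperones Hsp90aa1 and Hsp90ab1, the J-proteins Dnajb1 and Dnaja1, the nucleotide exchange factors Hsph1 and Bag3, and the zinc finger protein Zfand2a. They were chosen by name with their counts and changes in these same libraries already known, with no threshold, so their values are given as a description. They are 10 of the 6929 genes that had a transcript with reads in all libraries, and all 10 passed that filter. The cells were MIN6, an insulinoma line of mouse beta cells, in 3 independent experiments. Control cells had DMSO for 18 h, CPA1 cells were given CPA at 200 µM for 1 h, and CPA18 cells had the same dose for 18 h. CPA, cyclopiazonic acid, blocks the SERCA pump that fills the endoplasmic reticulum (ER) with calcium. Each treatment of each experiment was read by mRNA-seq, which counts messenger RNA, and by Ribo-seq, which counts the fragments that ribosomes protect, for 18 libraries in all. The DMSO time of the control matches that of CPA18 and not that of CPA1. The study asked how beta cells change mRNA abundance and translation between acute and chronic ER stress.

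Cells hold misfolded proteins in the cytosol in check with HSP70 and HSP90, which bind and release client proteins in cycles driven by ATP. J-proteins bring clients to HSP70 and start its ATP hydrolysis, and nucleotide exchange factors such as Hsph1 and Bag3 open it again. Heat and other stresses that misfold cytosolic proteins free the transcription factor HSF1, which binds inverted repeats of GAA, the heat shock elements, in the promoters of these genes. ER stress acts through the unfolded protein response, whose textbook targets are the chaperones inside the ER, such as Hspa5 (BiP).

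Values are given as RPKM, reads scaled to the length of the transcript and to the total of the library, in the order of experiments 1, 2 and 3. A log2 change comes from edgeR's quasi-likelihood fit on the counts with the experiment as a block and is given ± SE, with 3 libraries in each group, and a gene is called when its Benjamini-Hochberg adjusted p over the 6929 genes was under 0.05. Library totals ran from 520960 to 4755030 reads in mRNA-seq and from 168129 to 1083297 in Ribo-seq, and the shallowest were control of experiment 1 in mRNA-seq and CPA18 of experiments 1 and 2 in Ribo-seq. For 2 control libraries of experiment 2 the labels name different assays in the title and in the description. They were placed by their titles, and the mRNA-seq library correlated with the other libraries of its own assay at a mean r of 0.930 and with those of the other assay at 0.825, against 0.937 and 0.839 for the Ribo-seq library, so each resembled the assay of its title. The 9 beta cell markers were all present, with Ins1, Ins2 and Iapp among them. Their summed level was 95374 to 265408 RPM (reads scaled to the library total alone) in control mRNA-seq, 88740 to 243388 in CPA1 and 28706 to 84340 in CPA18, and 8 of 9 fell at CPA18 in each assay. Of the markers of other cells, those of other islet cells summed to 24.97 to 265 RPM over all libraries, with Gcg, the glucagon gene of alpha cells, read in every library at 24.2 to 261 RPM. Those of acinar and duct cells summed to at most 4.26 RPM and those of stroma and immune cells to at most 6.45, with Col3a1 and Ptprc at 0 in every library. In such bulk libraries fewer cells of a kind and less RNA per cell cannot be told apart.

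Because reads are shares of a library, the typical gene shifted as well. The median log2 change of all genes was -0.12 at CPA1 and 0.38 at CPA18 in mRNA-seq, and 0.07 and 0.42 in Ribo-seq, while the beta cell markers fell. Of the calls over all genes at CPA18, 77.4% in mRNA-seq and 80.4% in Ribo-seq were increases, against 50.4% and 49.3% with TMM scaling, which sets the bulk of the genes near no change. Scaling to totals that exclude the insulin genes gave shares of 62.3% in mRNA-seq and 64.6% in Ribo-seq. With that scaling, 1 of the 10 genes was called at CPA18 in mRNA-seq, as lower, as with full totals. Of all genes 1926 were called there. In Ribo-seq 5 of the 10 were called, 1 as higher and 4 as lower, beside 1761 of all genes. With full totals 2 of the 10 were called in Ribo-seq, 1 as higher and 1 as lower. Beyond this rescaling, the part of the lower insulin reads in the changes below was not tested. Changes are therefore also set against the median gene.

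The promoters were also searched for heat shock elements. No sequence was used to list the genes, but they were named as heat shock genes, whose promoters are known for these elements. The share of genes with a match is therefore a description and no independent support. RefSeq windows of GRCm38.p6 that run from 250 bases before a transcript's start site to 50 after were at hand for 7 of the 10 genes. They were searched on both strands for 2 neighbouring inverted GAA units, GAANNTTC or TTCNNGAA, each of which reads the same on either strand, and for the longer heat shock element of 3 such units in alternating orientation with the same spacing, which contains the shorter motifs. A short motif was found for 6 of 7 genes, against 16.97% of all 27025 genes with a window and 13.1% of the 5590 tested genes with one. The sequences of these matches are shown because their letters fit the known heat shock element, written on the gene's strand with the motif in capitals.
Hspa1a: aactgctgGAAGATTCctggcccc
Hspa1b: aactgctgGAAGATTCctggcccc
Dnaja1: agcctctaGAAAATTCtacgaggc
Hsph1 (upstream): tagaatctTTCTCGAAggctcgag
Hsph1 (downstream): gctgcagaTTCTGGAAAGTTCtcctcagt
Zfand2a: cctgactgTTCTAGAAaataggcg
Bag3: tgggaccaGAAGTTTC

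The Hspa1a stretch is at chr17:34972245-34972268 and the Hspa1b stretch at chr17:34959327-34959350, both on the minus strand, and the motif ended 97 bases before the start site in each. The shown stretches of these neighbouring genes have the same letters, so their matches are not independent of each other. In Dnaja1 the motif began 124 bases before the start site (chr4:40722336-40722359, plus strand), and in Zfand2a 196 bases before it (chr5:139484672-139484695, minus strand). Hsph1 held a motif 54 bases before its start site (chr5:149636354-149636377, minus strand) and the longer motif 15 bases after it, inside the transcript (chr5:149636280-149636308). Bag3 held its motif 42 bases after the start site, also inside the transcript (chr7:128523617-128523632, plus strand). The longer motif was found in Hsph1 alone of the 7 genes, and in 0.662% of all genes with a window. Of the 15 other heat-induced genes with a window, 6 held a short motif and 3 the longer one. Dnajb1 had no match in these letters within its window, and the windows of Hspa8, Hsp90aa1 and Hsp90ab1 were not analysed here. Of the 13 ER genes listed for comparison, mostly chaperones, 11 had a window and 0 held a short motif. Of 52 other cytosolic chaperone genes with a window, 15 held it (28.8%). A match is a description of letters and no measurement of binding.

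Levels in control cells spread widely between the 10 genes. The constitutive Hspa8 led both assays, with a mean of 882 ± 144 RPKM (SD, n = 3) in mRNA-seq and 2225 ± 246 in Ribo-seq, which placed it at rank 54 and rank 16 of the 6929 genes. Hsp90ab1 followed with 335 ± 48.0 and 904 ± 63.9 RPKM. The 3 libraries of these genes did not overlap with those of the next gene in the order. Hsp90aa1 came next at 104 ± 49.5 RPKM in mRNA-seq and 808 ± 39.5 in Ribo-seq. In mRNA-seq, neighbours in the order from Hsp90aa1 down to Hspa1b (Zfand2a, Dnajb1, Bag3, Dnaja1, Hsph1, Hspa1a) all overlapped. At the lower end the inducible HSP70 genes stood at 4.07 ± 1.16 (Hspa1a) and 3.52 ± 1.30 RPKM (Hspa1b) in mRNA-seq, at percentiles 29.4 and 25.9 of the tested genes. In Ribo-seq Zfand2a joined them at 8.64 ± 2.67 RPKM, beside 8.97 ± 0.563 for Hspa1a and 8.38 ± 1.36 for Hspa1b, and the ranges of these 3 genes overlapped. After CPA, Hspa8 and the HSP90 genes stayed ahead of the other 7 in Ribo-seq, with no overlap at CPA1 or CPA18.

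**Figure D1:**
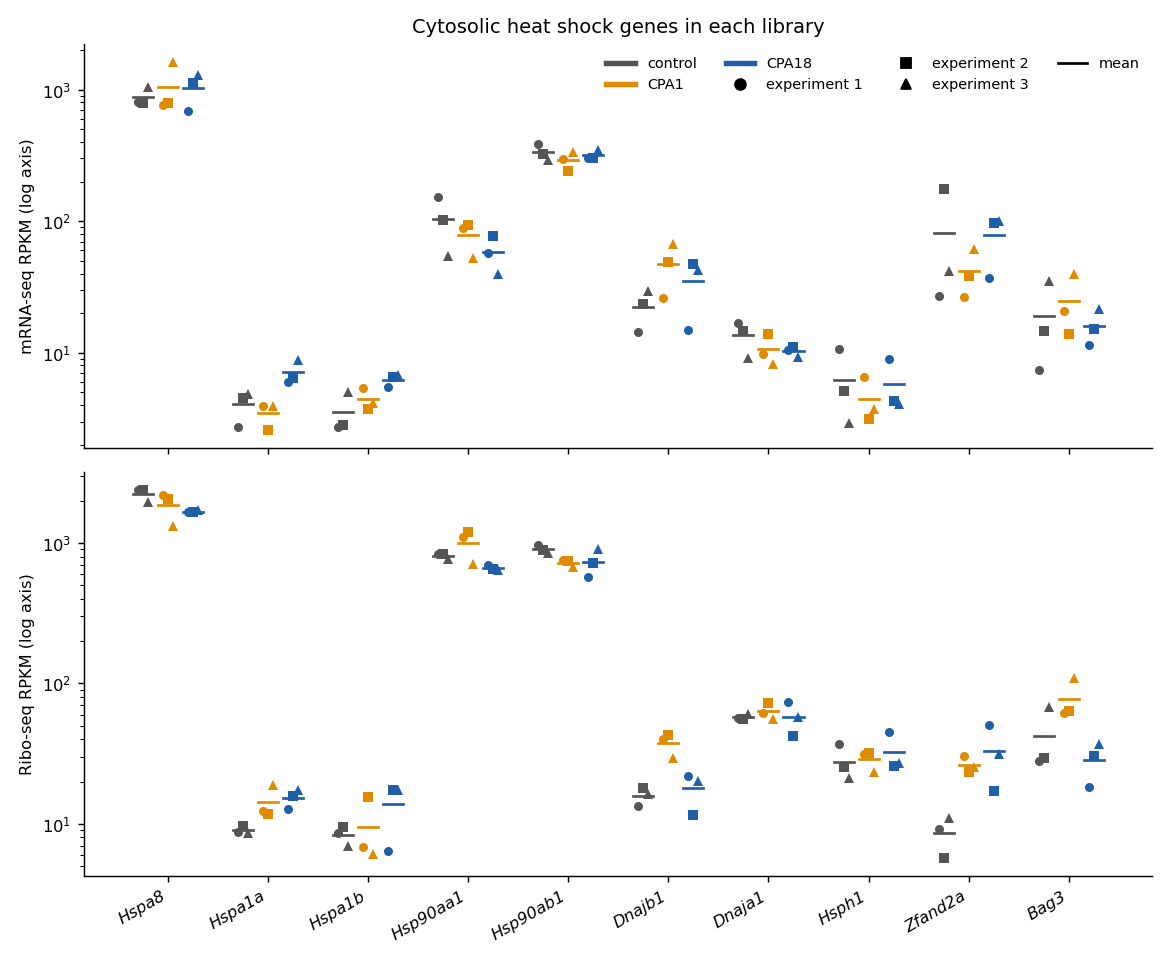
RPKM of the 10 heat shock genes in each library on a log axis, mRNA-seq above and Ribo-seq below. Colours give the treatment, symbols the experiment and short bars the mean of 3 libraries. In Ribo-seq the CPA1 libraries of Dnajb1 and Zfand2a lie above all of their controls, and in mRNA-seq the control library of experiment 2 of Zfand2a lies far above the other controls.

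After 1 h of CPA, the genes called as higher were the J-protein Dnajb1 in both assays and Zfand2a and Bag3 in Ribo-seq. Hspa1a was also higher than control in all 3 experiments in Ribo-seq (0.69 ± 0.33), without a call. In mRNA-seq 1 of 10 genes was called, Dnajb1, against 0.938% of all genes called and 0.505% called as increased. In Ribo-seq 3 of 10 were called, all as increased, against 6.67% and 3.75% of all genes. After 18 h the call of Zfand2a in Ribo-seq was still made (1.84 ± 0.30), those of Dnajb1 and Bag3 were not, and the abundant chaperones Hsp90aa1 (mRNA-seq) and Hspa8 (Ribo-seq) were called as lower. These are 1 of 10 genes in mRNA-seq, against 34.9% of all genes called and 7.89% called as decreased, and 2 of 10 in Ribo-seq, against 31.8% called, of which 25.6% of all genes as increased and 6.25% as decreased. Nothing is read from these counts, since results of the same comparisons were known when the genes were listed. CPA1 and CPA18 were compared with the same control libraries.

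The median log2 change of the 10 genes was -0.24 at CPA1 and 0.05 at CPA18 in mRNA-seq, where the median of all genes was -0.12 and 0.38. In Ribo-seq it was 0.21 and 0.11, beside 0.07 and 0.42. At CPA18 the 10 genes thus had a median below that of all genes by 0.33 in mRNA-seq and by 0.31 in Ribo-seq. Values below the median gene in all 3 experiments were found for 5 of 10 genes in mRNA-seq (Hspa8, Hsp90aa1, Hsp90ab1, Dnaja1 and Hsph1), as for 29.6% of all genes, and for 5 of 10 in Ribo-seq (the same list with Bag3 in place of Hsph1), as for 25.9%. Values above it in all 3 experiments were found for none of the 10 in mRNA-seq, against 30.1% of all genes, and for Hspa1a and Zfand2a in Ribo-seq, against 25%.

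**Figure D2:**
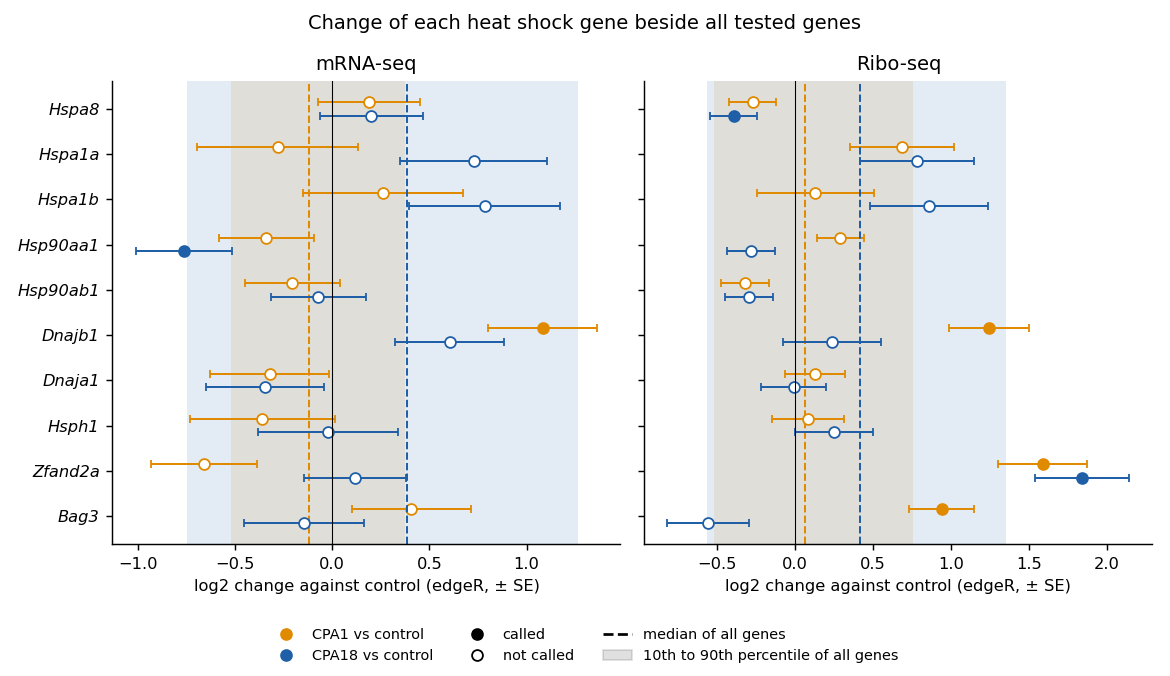
log2 change against control of each heat shock gene from edgeR, with its SE, at CPA1 and CPA18, for mRNA-seq (left) and Ribo-seq (right). Filled points are called and open points are not, dashed lines mark the median of the 6929 genes and shaded bands their 10th to 90th percentile. In Ribo-seq the CPA1 points of Dnajb1, Zfand2a and Bag3 lie right of the CPA1 band, and at CPA18 only Zfand2a lies right of the CPA18 band.

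Among the HSP70 chaperones, Hspa8 is the form that cells make at all times. Its mRNA-seq RPKM was 806, 792 and 1048 in control, 768, 788 and 1614 at CPA1 and 692, 1128 and 1288 at CPA18. These ranges overlapped, and the log2 change was 0.19 ± 0.26 at CPA1 and 0.20 ± 0.26 at CPA18. In Ribo-seq Hspa8 had 2367, 2365 and 1941 RPKM in control, 2183, 2069.7 and 1329.9 at CPA1 and 1659, 1651 and 1703 at CPA18. The 3 CPA18 libraries lay close together and below all controls, and Hspa8 fell by 0.40 ± 0.15 on the log2 scale. This call was lost without experiment 1 (-0.34), without experiment 2 (-0.34) and without the control Ribo-seq library of experiment 2 alone (-0.39), and with TMM scaling the change was -0.77.

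Hspa1a and Hspa1b are the HSP70 genes that heat induces most. Each is 1 exon, they lie near each other on chromosome 17 (Hspa1a at 34969359 to 34972156 and Hspa1b at 34956429 to 34959238, GRCm38.p6, minus strand), and 71.1% of the 25-base windows of the Hspa1a transcript occur in another gene's transcript, so the split of reads between them is uncertain. Hspa1a had 2.74, 4.56 and 4.90 RPKM in control mRNA-seq, 3.92, 2.60 and 3.96 at CPA1 and 6.04, 6.46 and 8.75 at CPA18, from 4 to 86 reads a library. Hspa1b had 2.73, 2.81 and 5.02 RPKM in control, 5.42, 3.76 and 4.14 at CPA1 and 5.44, 6.59 and 6.73 at CPA18. For both genes the CPA18 libraries lay above all control libraries in mRNA-seq (0.73 ± 0.38 and 0.78 ± 0.39), as for 14.9% of all genes, and neither gene was called.

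With the reads of Hspa1a and Hspa1b summed, the mRNA-seq RPKM was 5.48, 7.38 and 9.92 in control, 9.35, 6.36 and 8.10 at CPA1 and 11.5, 13.05 and 15.5 at CPA18. In Ribo-seq the sum was 17.4, 19.2 and 15.5 in control, 19.3, 27.2 and 25.04 at CPA1 and 19.1, 33.4 and 34.8 at CPA18, from 9 to 54 reads a library. The CPA18 library of experiment 1, which had the 9 reads, lay within the control range, and the other CPA18 libraries lay above it. The sum changed by 0.77 ± 0.32 in mRNA-seq, which was not called, and by 0.80 ± 0.29 in Ribo-seq, which was, at CPA18, and by 0.02 ± 0.34 and 0.45 ± 0.27 at CPA1, neither called. Relative to the median gene, the CPA18 change of Hspa1a came to 0.35 (mRNA-seq) and 0.36 (Ribo-seq).

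Hsp90aa1, the inducible form, had 154, 102 and 54.6 RPKM in control mRNA-seq, 88.6, 94.2 and 52.45 at CPA1 and 57.1, 77.6 and 39.4 at CPA18. It was lower than control in each experiment at both times, although the spread between experiments made the groups overlap, and it fell by 0.76 ± 0.25 on the log2 scale at CPA18. The call was lost without experiment 1 (-0.43) and without experiment 3 (-0.91), and was made without the control mRNA-seq library of experiment 2 (-0.91). In Ribo-seq Hsp90aa1 had 833, 829 and 763 RPKM in control, 1107, 1196 and 709 at CPA1 and 693, 656 and 637 at CPA18. All CPA18 libraries lay below all controls, and the change was -0.28 ± 0.15, which was not called in the library-total scaling and was -0.66 and called with TMM.

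Hsp90ab1, the constitutive form, had 387, 326 and 293 RPKM in control mRNA-seq, 298, 241 and 339 at CPA1 and 304, 305 and 347 at CPA18, with changes of -0.20 ± 0.25 and -0.07 ± 0.25. In Ribo-seq it had 974, 892 and 848 RPKM in control, 755, 742 and 675 at CPA1 and 572, 723 and 912 at CPA18. Its CPA1 libraries lay below all controls, which held for this gene of the 10 and for 9.01% of all genes, with a change of -0.32 ± 0.15 that was not called. At CPA18 the Ribo-seq change was -0.30 ± 0.16, also not called with library totals. Hsp90ab1 was called as lower at CPA18 with TMM and DESeq2 in each assay. In Ribo-seq that call was also made with median centring and with totals without the insulin genes.

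The J-proteins differed from each other. Dnajb1, the HSP40 that pairs with inducible HSP70, had 14.4, 23.5 and 29.4 RPKM in control mRNA-seq, 26.2, 49.4 and 67.4 at CPA1 and 15.0, 47.6 and 42.3 at CPA18. Each experiment was higher at CPA1 by a close amount, a log2 ratio of 0.87, 1.07 and 1.198, which put the gene at percentile 99.0 of all genes and gave a change of 1.08 ± 0.28. This call was lost when any experiment was left out (1.14, 1.09 and 1.01 without experiments 1, 2 and 3) and without the control mRNA-seq library of experiment 2 (0.96). In Ribo-seq Dnajb1 had 13.4, 17.9 and 16.3 RPKM in control, 40.5, 43.2 and 29.4 at CPA1 and 22.01, 11.6 and 20.2 at CPA18, from 7 to 62 reads a library. All CPA1 libraries lay above all control and CPA18 libraries. The change was 1.24 ± 0.26 at CPA1, which was called with each experiment left out, without the doubtful control library and without the block, but not with limma at either pseudocount, and 0.23 ± 0.31 at CPA18.

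Dnaja1, another HSP40 with a constitutive level, had 16.9, 14.7 and 9.17 RPKM in control mRNA-seq, 9.71, 13.9 and 8.22 at CPA1 and 10.4, 10.998 and 9.29 at CPA18. In Ribo-seq it had 56.8, 55.4 and 60.7 RPKM in control, 61.4, 73.0 and 55.6 at CPA1 and 73.8, 42.1 and 57.5 at CPA18. All of these groups overlapped, with changes between -0.35 and 0.13 and an SE of 0.19 to 0.31. Relative to the median gene, Dnaja1 stood at -0.73 (mRNA-seq) and -0.43 (Ribo-seq) at CPA18, and in mRNA-seq it was called as lower with TMM scaling (-0.69).

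The exchange factors also differed. Hsph1, the HSP110 that exchanges nucleotide on HSP70, had 10.6, 5.14 and 2.90 RPKM in control mRNA-seq, 6.56, 3.11 and 3.705 at CPA1 and 8.89, 4.29 and 4.07 at CPA18. In Ribo-seq it had 37.0, 25.2 and 21.1 RPKM in control, 31.5, 31.9 and 23.6 at CPA1 and 45.1, 25.9 and 26.9 at CPA18. Its groups overlapped in both assays at both times, with changes between -0.36 and 0.25 and an SE of 0.23 to 0.37, from 16 to 104 reads a library.

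Bag3, which links HSP70 to selective autophagy, had 7.36, 14.7 and 35.2 RPKM in control mRNA-seq, 20.8, 13.9 and 39.7 at CPA1 and 11.4, 15.2 and 21.5 at CPA18. All 3 groups overlapped, with the CPA1 library of experiment 3 the highest, and the changes were 0.41 ± 0.31 and -0.14 ± 0.31. In Ribo-seq Bag3 had 28.03, 29.3 and 68.3 RPKM in control, 61.3, 63.5 and 108 at CPA1 and 18.3, 30.2 and 36.7 at CPA18. These came from 8 to 193 reads a library, with 8, 16 and 53 at CPA18. Experiment 3 was the highest of each group, and within experiments CPA1 was higher than control by a log2 ratio of 1.13, 1.12 and 0.67. The change was 0.94 ± 0.21 at CPA1, which was called with each experiment left out but not without the control Ribo-seq library of experiment 2 alone (0.81), without the block (0.88) or with limma, and -0.56 ± 0.26 at CPA18, which was not called with library totals and was called as lower with TMM (-0.92), DESeq2, median centring and totals without the insulin genes.

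Zfand2a encodes AIRAP, a protein induced by arsenite and heat that associates with the proteasome. In mRNA-seq it had 27.1, 176 and 42.0 RPKM in control, 26.4, 38.2 and 61.9 at CPA1 and 36.9, 97.5 and 100.0 at CPA18. The control library of experiment 2, with 923 reads, was the highest of all 9 libraries, and it is one of the pair whose title and description disagree. With it the change was -0.66 ± 0.27 at CPA1 and 0.12 ± 0.26 at CPA18, and without it 0.17 and 1.02, of which the last was called. In Ribo-seq Zfand2a had 9.17, 5.74 and 11.01 RPKM in control, 30.2, 23.2 and 25.3 at CPA1 and 50.5, 16.99 and 31.2 at CPA18, from 11 to 55 reads a library. All CPA libraries lay above all controls at both times, as did those of Hspa1a. The change in Ribo-seq was 1.59 ± 0.29 at CPA1 and 1.84 ± 0.30 at CPA18, at percentiles 99.2 and 96.7 of all genes, and without the control Ribo-seq library of experiment 2 it was 1.53 and 1.79. The CPA1 call was not made with limma.

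Non-overlapping groups with higher values in Ribo-seq were thus found for 3 of 10 genes at CPA1 (Hspa1a, Dnajb1 and Zfand2a), against 10.4% of all genes, and for 2 of 10 at CPA18 (Hspa1a and Zfand2a), against 31%. Hspa1a had 6, 9 and 27 reads at CPA18, and its split of reads from Hspa1b is uncertain. Hspa1b overlapped its controls in Ribo-seq at both times. In experiment 1 it was lower after CPA (8.67 RPKM in control, 6.86 at CPA1 and 6.35 at CPA18). Lower non-overlapping groups were found for 2 of 10 at CPA18 (Hspa8 and Hsp90aa1), against 8.85%.

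Between 1 h and 18 h of CPA, Bag3, Dnajb1 and Hsp90aa1 came down in Ribo-seq. The changes from CPA1 to CPA18 were -1.50 ± 0.26, -1.01 ± 0.30 and -0.57 ± 0.15, and in each the 3 CPA18 libraries lay below the 3 CPA1 libraries, as for 7.1% of all genes. These 3 of 10 genes were called, against 23.6% of all genes called and 5.41% called as decreased. Of the calls over all genes 77.1% were increases, and 46.0% with TMM. The Bag3 call was made with each experiment left out, that of Dnajb1 was lost without experiment 2 (-0.73), and that of Hsp90aa1 without experiment 1 (-0.52) or experiment 2 (-0.42). In mRNA-seq the calls changed with the scaling and with the experiments used. With library totals 2 of 10 genes were called, both as higher (Hspa1a, 1.01 ± 0.38, and Zfand2a, 0.78 ± 0.26), against 39.6% of all genes called and 33.8% called as increased. With TMM 4 of 10 were called, all as decreased (Hspa8, Hsp90aa1, Dnajb1 and Bag3), against 15.8% of all genes. With library totals but without experiment 2, neither Hspa1a (0.89) nor Zfand2a (0.60) was called, and Bag3 (-0.89) and Dnajb1 (-0.72) were called as lower. Without experiment 3, and without the block, 0 of 10 were called. The sum of Hspa1a and Hspa1b changed by 0.75 ± 0.31 and was called.

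Ribosome occupancy is the Ribo-seq RPKM of a gene over its mRNA-seq RPKM in the same experiment, a measure of how densely ribosomes cover an mRNA. In control cells Hsp90aa1 had an occupancy of 5.42, 8.10 and 13.96, with a mean at percentile 97.7 of the tested genes, whose median was 1.41. Hsph1 (3.48, 4.89 and 7.25) and Dnaja1 (3.36, 3.77 and 6.62) followed at percentiles 92.1 and 89.9. At the other end were Dnajb1 with 0.931, 0.761 and 0.554 and Zfand2a with 0.338, 0.0326 and 0.262, at percentiles 19.2 and 0.58. The remaining 5 genes had means of 2.34 to 2.72.

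This order partly follows how the values are scaled, since RPKM divides by the whole transcript and ribosomes cover its coding part. The coding sequence is 16.6% of the Zfand2a transcripts, 29.6% of those of Dnajb1 and 35.4% of those of Dnaja1, and 92.1% for Hspa8, against a median of 52.3% for the tested genes. With footprints divided by the coding length, a scaling chosen after the data were seen, Zfand2a moved from percentile 0.58 to 13.5 and Dnajb1 from 19.2 to 43.6 in control cells. Hspa8 moved from percentile 76.3 down to 48.6. Dnaja1 (93.3), Hsp90aa1 (91.9) and Hsph1 (81.2) remained the 3 highest of the 10 genes.

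**Figure D3:**
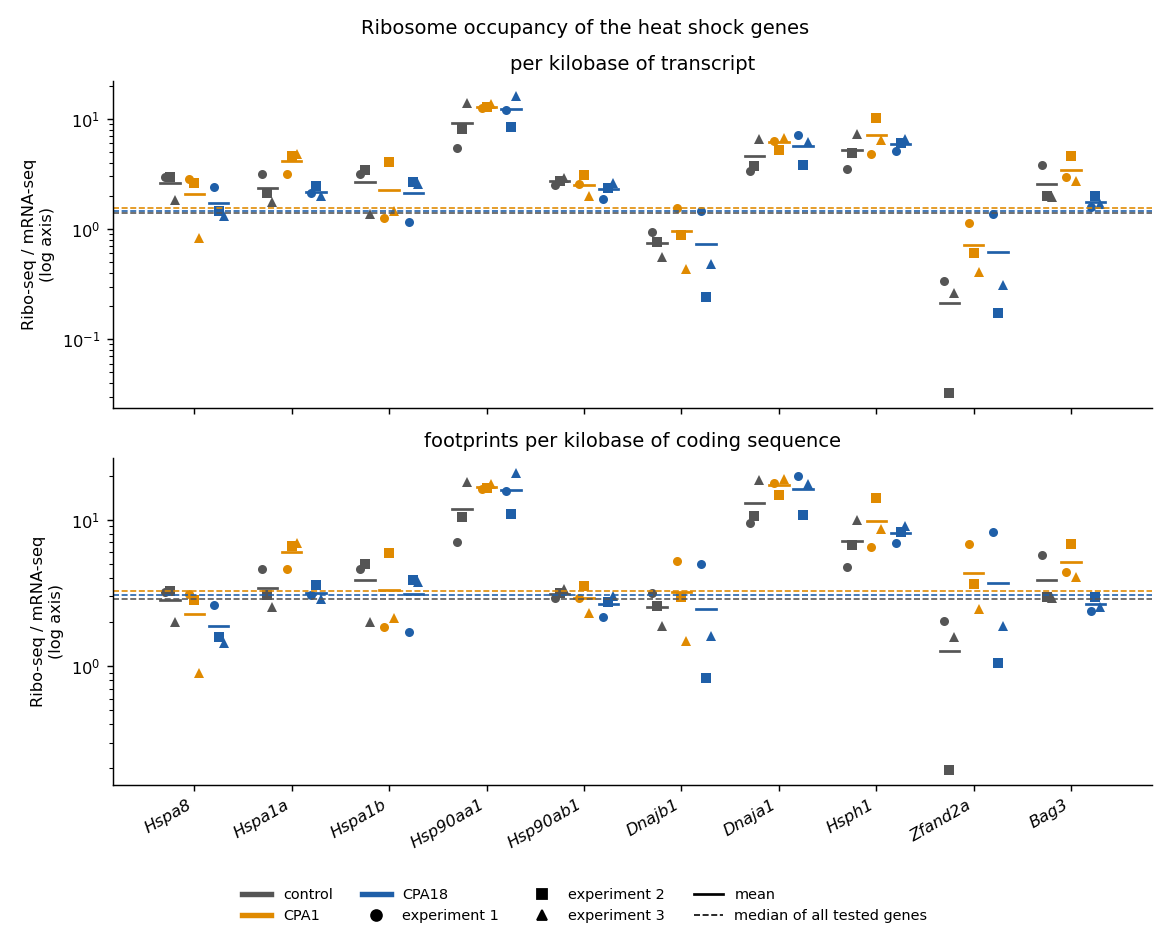
Ribosome occupancy, the ratio of Ribo-seq to mRNA-seq, of the heat shock genes in each experiment on log axes, per kilobase of transcript (top) and with footprints per kilobase of coding sequence (bottom). Colours give the treatment, symbols the experiment, short bars the mean of 3 experiments and dashed lines the median of all tested genes in each treatment. Hsp90aa1 lies above and Zfand2a below these medians per kilobase of transcript, and the lowest point is the control of experiment 2 of Zfand2a.

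Of the 10 genes, 1 was called for a change in occupancy at CPA1, Zfand2a, against 0.0866% of all genes. Its occupancy was 1.14, 0.608 and 0.410 at CPA1, above all 3 controls, as for 5.33% of all genes, and the change of the interaction fit was 2.26 ± 0.45. The log2 ratios to control within experiments were 1.76, 4.22 and 0.64, the largest of them in the experiment with the doubtful control. Without the control mRNA-seq library of experiment 2 the change was 1.42 and without experiment 2 it was 1.11, and neither was called. TMM scaling gave 2.15 and limma 2.15 with a pseudocount of 0.5, and these were not called either.

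At CPA18 none of the 10 genes was called for occupancy by edgeR, DESeq2 or limma, against 0.476% of all genes by edgeR, and 2 (Hspa8 and Zfand2a) had an unadjusted p under 0.05. Hspa8 had an occupancy of 2.94, 2.99 and 1.85 in control and 2.40, 1.46 and 1.32 at CPA18, lower in each experiment, with overlapping ranges and a change of -0.60 ± 0.30. Zfand2a changed by 1.74 ± 0.45, with log2 ratios to control within experiments of 2.01, 2.42 and 0.25. The largest was in experiment 2, with the doubtful control. Zfand2a was called with no filter and without experiment 3, and not without the control mRNA-seq library of experiment 2. Between CPA1 and CPA18, 0 of 10 were called by edgeR, DESeq2 or limma, against 0.0722% of all genes by edgeR, and 1, Bag3, had an unadjusted p under 0.05. Bag3 had an occupancy of 2.95, 4.55 and 2.73 at CPA1 and of 1.5985, 1.99 and 1.70 at CPA18, and these groups did not overlap, as for Hspa1a and for 4.39% of all genes.

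The ER chaperones of the same families took another course at 18 h. Hspa5 (BiP), the HSP70 of the ER, had 241, 115 and 95.4 RPKM in control mRNA-seq and 674, 453 and 398 at CPA18, and rose by 1.83 ± 0.25 (edgeR, adjusted p = 1.22e-10), where its cytosolic counterpart Hspa8 was at 0.20 ± 0.26. In Ribo-seq Hspa5 had 1241, 1209.6 and 1498 RPKM in control and 5029, 5408 and 4689 at CPA18, a rise of 1.94 ± 0.15 (edgeR, adjusted p = 9.02e-21), where Hspa8 was at -0.40. At CPA18 Hspa5 thus stood above Hspa8 in Ribo-seq, with no overlap, and below it in control.

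Hyou1, the ER counterpart of Hsph1, rose by 1.74 ± 0.25 in mRNA-seq and 1.48 ± 0.17 in Ribo-seq (edgeR, adjusted p = 9.09e-10 and 6.88e-13), where Hsph1 was at -0.02 ± 0.36 and 0.25 ± 0.25. Dnajb11, a J-protein of the ER, rose by 1.62 ± 0.26 and 1.01 ± 0.22 (edgeR, adjusted p = 5.78e-08 and 9.53e-05), beside 0.61 ± 0.28 and 0.23 ± 0.31 for Dnajb1. Hsp90b1, the HSP90 of the ER, was at 0.48 ± 0.25 in mRNA-seq (edgeR, adjusted p = 0.113) and rose by 0.66 ± 0.16 in Ribo-seq (edgeR, adjusted p = 0.000451), beside -0.07 and -0.30 for Hsp90ab1. These differences between counterparts were not tested as such. The ER genes too were listed with earlier results of these data known, so their adjusted p-values are descriptions.

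**Figure D4:**
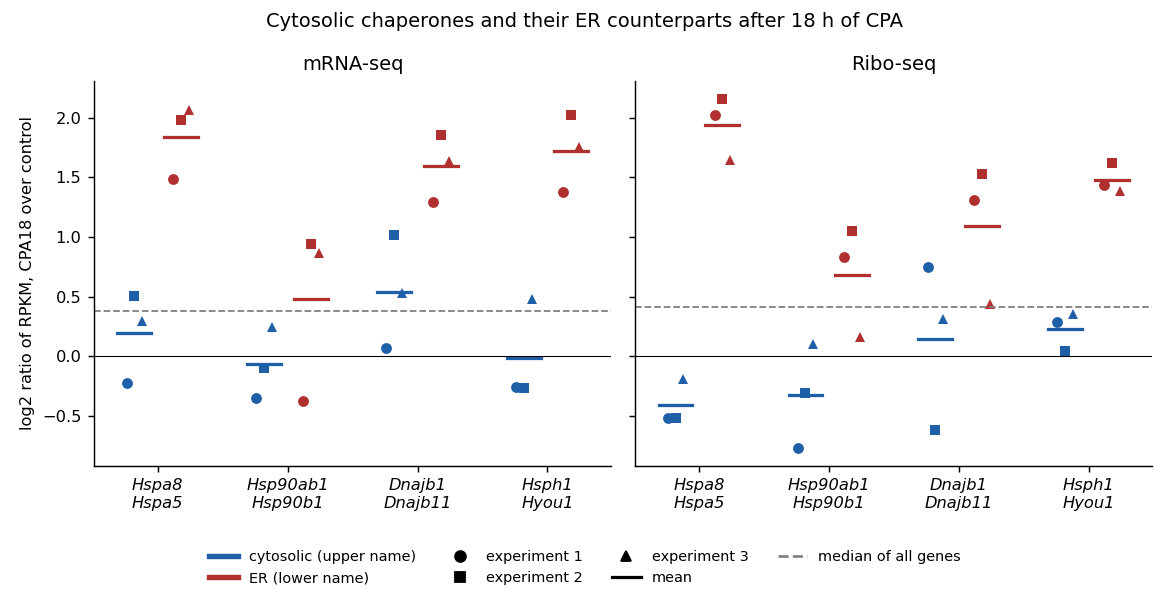
log2 ratio of RPKM at CPA18 over control in each experiment for cytosolic chaperones (blue, upper name) and their ER counterparts (red, lower name), in mRNA-seq (left) and Ribo-seq (right). Symbols give the experiment, short bars the mean of 3 and dashed lines the median edgeR change of all genes. All points of Hspa5, Dnajb11 and Hyou1 lie above those of their cytosolic counterparts in mRNA-seq.

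Over the list of 13 ER genes, mostly chaperones, 11 rose and 0 fell at CPA18 in mRNA-seq. In Ribo-seq 12 rose and 0 fell, and the medians in the 2 assays were 1.74 and 1.36. Of all genes, 27% were called as increased in mRNA-seq and 25.6% in Ribo-seq. At CPA1 the order was the opposite in Ribo-seq. There 1 of the 13 listed ER genes rose, Herpud1 (1.41 ± 0.17, edgeR adjusted p = 1.18e-10), which is not itself a chaperone. The 3 that fell were Canx (-0.81 ± 0.16, edgeR adjusted p = 6.85e-05), Hsp90b1 (-0.58 ± 0.16, edgeR adjusted p = 0.00892) and Pdia4 (-0.52 ± 0.17, edgeR adjusted p = 0.0472), while Dnajb1, Zfand2a and Bag3 were higher. The list's median at CPA1 in Ribo-seq was -0.33, beside 0.21 for the 10 heat shock genes and 0.07 for all genes. Of all genes, 3.75% were called as increased and 2.92% as decreased in that comparison. Experiment 3 had the largest change in each of the 3 that fell. The log2 ratios were -0.57, -0.60 and -1.26 for Canx, -0.26, -0.24 and -1.21 for Hsp90b1 and -0.08, -0.28 and -1.19 for Pdia4. With limma 0 of 13 were called, and with DESeq2 5.

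The other cytosolic chaperones and their helpers, 64 listed genes of which 51 were tested, hold the rest of the HSP70 family and its exchange factors, J-proteins, HSP90 cochaperones, the chaperonin TRiC with prefoldin, small heat shock proteins and regulators of HSF1. At CPA1 none of 51 was called in mRNA-seq by edgeR, DESeq2 or limma, and 2 had an unadjusted p under 0.05. In Ribo-seq 0 rose and 2 fell, the TRiC subunits Tcp1 (-0.62 ± 0.17, edgeR adjusted p = 0.0134) and Cct2 (-0.59 ± 0.17, edgeR adjusted p = 0.0196). Of all genes at CPA1, 0.938% were called in mRNA-seq, and 3.75% as increased and 2.92% as decreased in Ribo-seq. The 51 had medians of -0.15 (mRNA-seq) and 0.05 (Ribo-seq), beside -0.12 and 0.07 for all genes.

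At CPA18, 14 of the 51 rose and 1 fell in mRNA-seq and 8 rose and 0 fell in Ribo-seq, with medians of 0.52 and 0.33 beside 0.38 and 0.42 for all genes. Of all genes, 27% were called as increased and 7.89% as decreased in mRNA-seq, and 25.6% and 6.25% in Ribo-seq, so the share of the 51 that rose was near that of all genes in mRNA-seq and below it in Ribo-seq. TRiC and prefoldin gave 8 of the 14 in mRNA-seq, with Cct4 at 1.199 ± 0.27 (edgeR adjusted p = 0.000159), Pfdn1 at 0.77 and Cct7 at 0.76 ± 0.25 (edgeR adjusted p = 0.00899), and 2 of the 8 in Ribo-seq, both prefoldin subunits (Pfdn2 and Pfdn6). The HSP90 cochaperones gave 3 in mRNA-seq (Fkbp5, Ptges3 and Ahsa1, at 0.93, 0.72 and 0.69) and 3 others in Ribo-seq (Ppid, Sugt1 and Stub1, at 1.05, 1.01 and 0.77). Hspa4l, an HSP110 like Hsph1, fell by 1.31 ± 0.54 in mRNA-seq (edgeR adjusted p = 0.0488). Hspa14 and Bag5 of the HSP70 group rose by 1.09 ± 0.31 and 1.07 ± 0.34 (edgeR adjusted p = 0.003 and 0.00898), and Dnajb2 by 0.88 ± 0.36 (edgeR adjusted p = 0.045). Hspa14 was higher in all 3 experiments, and Bag5 and Dnajb2 in 2 of 3. In Ribo-seq the small heat shock protein Hspb6 rose by 1.54 ± 0.41 (edgeR adjusted p = 0.00202), Bag2 by 1.34 ± 0.47 (edgeR adjusted p = 0.022) and Hsbp1, which binds HSF1, by 0.77 ± 0.26 (edgeR adjusted p = 0.018). With TMM scaling 4 of the 51 were called as higher and 2 as lower in mRNA-seq, and 1 as higher and 3 as lower in Ribo-seq, where DESeq2 called 0 as higher and 3 as lower. Without the control mRNA-seq library of experiment 2, 3 were called in mRNA-seq, and without experiment 3, 0.

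A further 17 genes that heat is known to induce, of which 13 were tested, include the mitochondrial chaperonin and genes of ubiquitin and autophagy. In Ribo-seq at CPA1, Ubb, a ubiquitin gene, rose by 0.63 ± 0.15 (edgeR adjusted p = 0.00205). Sqstm1, whose product p62 carries ubiquitinated cargo to autophagosomes, rose by 0.78 ± 0.15 (edgeR adjusted p = 0.000102). In mRNA-seq at that time 0 of 13 were called by edgeR or limma and 1 by DESeq2, and 1 had an unadjusted p under 0.05 in edgeR. At CPA18, 6 of 13 rose in Ribo-seq, led by Sqstm1 (2.22 ± 0.16, edgeR adjusted p = 8.22e-24), and 4 rose and 1 fell in mRNA-seq, led by Sqstm1 again (2.14 ± 0.27, edgeR adjusted p = 1.66e-12). Of all genes, 25.6% were called as increased in Ribo-seq, and 27% as increased and 7.89% as decreased in mRNA-seq. The medians of the 13 were 0.39 in Ribo-seq and 0.38 in mRNA-seq, close to the 0.42 and 0.38 of all genes. Hspe1, the cochaperonin of mitochondria, rose by 0.91 ± 0.26 in mRNA-seq (edgeR adjusted p = 0.0028). Of 17, Serpinh1, Dnajb4, Hspb1 and Cryab had no transcript with reads in every library and were not tested. The same held for Hsf1 and Hsf4 among the regulators.

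The 10 genes did not move as a block. With the level of each gene as log2(CPM + 0.5), centred within each experiment, the correlation of a gene with the mean of the 10 over the 9 libraries of an assay ranged from -0.36 (Dnaja1) to 0.76 (Zfand2a) in mRNA-seq and from -0.33 (Hsp90ab1) to 0.89 (Dnajb1) in Ribo-seq, the mean including the gene itself. These libraries share experiments and differ in depth, and no test was made. The genes outside the list with the pattern most like that mean were Ghdc (r = 0.98), Lsm14b (0.97) and Vps11 (0.97) of 4645 genes with at least 5 RPKM in mRNA-seq, and Cmtm4 (0.99), Irf2bp2 (0.97) and Acadvl (0.96) of 5297 in Ribo-seq. The Ribo-seq genes had their highest mean level at CPA1 and the mRNA-seq genes at CPA18.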

How the data were processed

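mRNA-seq and Ribo-seq were made from MIN6 cells in 3 independent experiments of 3 treatments, 18 libraries. The authors aligned reads with Bowtie2 to mouse RNA sequences (GRCm38), and they deposited raw read counts per transcript, which were used here. The deposited RPM and RPKM values were not tested. RPKM was recomputed from the counts and differed from the deposited RPKM by at most 0.00111 on the log2 scale. Of 30741 transcripts, 30227 matched a RefSeq symbol with the version, 478 without it and 36 had no match. Counts and RPKM were summed per gene over the 10163 transcripts with at least 1 read in each library. This gave the 6929 genes tested, and reads of a gene's other transcripts were left out. There were 0 columns of unmapped samples.

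Differences were tested by quasi-likelihood in edgeR 4.0.16 under R 4.3.3. Library size was the total count, the experiment was a block, and each assay's 9 libraries were fitted together. For occupancy, 1 fit of all 18 libraries gave the assay by treatment interaction. SE is the absolute log2 change over the square root of F. The labels give the experiment as a shared batch number. The mean correlation of same-numbered libraries' deviations was 0.545 in mRNA-seq (0.109 to 0.736, 9 pairs) and 0.138 in Ribo-seq (0.0794 to 0.188, 9 pairs). The lowest values in mRNA-seq, 0.109 and 0.117, were those of the CPA1 library of experiment 2 with control and CPA18. Control and CPA18 of that experiment correlated at 0.527. Alternatives used DESeq2 1.42.0, limma 3.58.1 on log2 values with pseudocounts of 0.5 and 1, TMM, centring on the median gene, totals without Ins1 and Ins2, no block, no filter, each experiment left out, the control mRNA-seq library of experiment 2 left out, and Hspa1a and Hspa1b summed. Totals also without Lars2, the control Ribo-seq library of experiment 2 left out and footprints per coding length were added after the data were seen. The fit was tested on simulated data. Python 3.11.15, numpy 2.4.6, pandas 2.3.3 and matplotlib 3.10.9 made the summaries and figures.

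The 10 genes and all gene lists were chosen with earlier results of these data known, so no p is given for the 10 genes. The edgeR adjusted p-values printed for genes of the other lists are descriptions for the same reason. They test no list and no contrast between lists. All 10 were named in each comparison, of each list the called genes with the 3 largest increases and decreases, counterpart pairs, and the genes most alike by r among those with a mean of at least 5 RPKM. Further called genes of a list were named after their values were seen. A result of the list of other heat-induced genes is not reported here. Depth was 520960 to 4755030 reads in mRNA-seq and 168129 to 1083297 in Ribo-seq. Genes with few reads, such as Hspa1a, Hspa1b and Zfand2a in Ribo-seq, have the least precise values. The p-values cover the spread between these 3 experiments.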

Additional observations from a re-analysis of the deposited data

How the results depend on the processing

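Counts of called genes are given here, first for the 10 heat shock genes and then for the 51 other cytosolic chaperones. No change of the 10 genes that was called with library totals and the block reversed its direction. In mRNA-seq between CPA1 and CPA18, however, some alternatives called other genes in the other direction, as given below. Of the log2 changes of the 10 genes recomputed under the alternatives, 65 moved by more than the SD between experiments and 1225 did not.

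Without the experiment as a block (the pairing of libraries by experiment), the 10 genes gave 0 calls in place of 1 in mRNA-seq at CPA1, 0 in place of 1 at CPA18, 0 in place of 2 between CPA1 and CPA18, 2 in place of 3 in Ribo-seq at CPA1 (Bag3 was lost), 1 in place of 2 at CPA18 and 0 in place of 1 for occupancy at CPA1. The 51 others gave 0 in place of 15, 0 in place of 22 (mRNA-seq at CPA18 and between the times), 0 in place of 2 (Ribo-seq at CPA1) and 4 in place of 7 (Ribo-seq between the times).

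In mRNA-seq at CPA18 the 10 genes gave 3 calls with TMM, 2 with median centring and 3 with DESeq2, all as lower. They gave 0 with limma (pseudocount 0.5) and 2 without the control mRNA-seq library of experiment 2, 1 as higher and 1 as lower. The 51 gave 6 with TMM, 4 with median centring, 4 without the insulin genes in the total, 2 with DESeq2, 5 and 9 with limma, 8 with no filter and 3 without that control library. At CPA1 the 10 gave 0 with limma at either pseudocount and 0 without that library, and the 51 gave 1 in place of 0 with no filter. Between CPA1 and CPA18 the 10 gave 4 with TMM, 3 with median centring, 4 without the insulin genes and Lars2 and 4 with DESeq2, all as lower. In place of the 2 called as higher, they gave 1 as higher without the insulin genes, 1 and 1 with limma and 1 with no filter. The 51 gave 8 with TMM, 8 with median centring, 11 and 9 without the insulin genes and without these and Lars2, 4 with DESeq2, 12 with limma (0.5) and 14 with no filter.

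In Ribo-seq at CPA18 the 10 gave 5 with TMM, median centring, both reduced totals and DESeq2, 1 with limma at either pseudocount and 1 without the control Ribo-seq library of experiment 2. Each set of 5 held 1 as higher and 4 as lower. Of all genes, the settings with 5 called 1672, 1637, 1761, 1807 and 1075, in that order. The 51 gave 4 with TMM, median centring and both reduced totals, 3 with DESeq2, 4 and 5 with limma and 5 without that library. At CPA1 the 10 gave 0 with limma at either pseudocount, and the 51 gave 4 with median centring, 0 with limma and 1 without that library. Between the times the 51 gave 2 with TMM, 2 with median centring, 1 with DESeq2 and 3 with limma (0.5).

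For occupancy at CPA1 the 10 gave 0 with TMM, median centring, the total without the insulin genes and Lars2, limma at either pseudocount, and without either control library of experiment 2. At CPA18 they gave 1 with no filter in place of 0, and the 51 gave 1 in place of 0 with TMM, median centring, both reduced totals, no filter and without the control mRNA-seq library, and 3 with DESeq2.

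With 1 experiment left out, the 10 gave 0 to 0 in mRNA-seq at CPA1, 0 to 2 at CPA18 and 0 to 2 between the times (without experiment 2, Bag3 and Dnajb1 as lower in place of Hspa1a and Zfand2a as higher), 1 to 3 in Ribo-seq at CPA18 and 1 to 3 between the times, and for occupancy 0 to 1 at CPA1 and 0 to 1 at CPA18. The 51 gave 0 to 12 and 6 to 18 in mRNA-seq (CPA18, between the times), and 0 to 1, 3 to 5 and 2 to 6 in Ribo-seq (CPA1, CPA18, between the times). Apart from fewer samples and fewer genes tested, the cause was not tested. The depth of the Ribo-seq libraries limits Hspa1a, Hspa1b, Dnajb1 and Zfand2a, each with at most 62 reads in every one. It also limits Bag3 at CPA18, with 8, 16 and 53 reads.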
